A study of Mus musculus with 12 samples.

Results

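Retinoid genes were examined in SVR tumors grown in mice, with 9 genes described here out of 54232 in the deposited count table. They were Crabp1 and Crabp2, which encode cytoplasmic proteins that bind retinoic acid, the nuclear receptor genes Rara, Rarb and Rarg, the retinaldehyde dehydrogenase genes Aldh1a2 and Aldh1a3, the retinoic acid hydroxylase gene Cyp26b1, and the retinaldehyde reductase gene Dhrs3. The set was chosen by the rise of Crabp2 with trametinib in these same tumors, and the question asked of the other 8 genes was whether they changed with it. Each gene was found by its name in the table. All 9 passed the filter on low counts that left 12897 genes for testing. Retinoic acid is the active form of vitamin A. Retinol is oxidised to retinaldehyde and then, by the Aldh1a enzymes, to retinoic acid, whereas Dhrs3 returns retinaldehyde to retinol and Cyp26 enzymes inactivate retinoic acid. In the nucleus the receptors, paired with a retinoid X receptor, bind DNA and switch target genes on when retinoic acid is bound. Crabp2 carries retinoic acid to the receptors, while Crabp1 is associated with its breakdown. Skin epidermis is a tissue known to need and to make retinoic acid.

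SVR is a line of mouse endothelial cells transformed with SV40 large T antigen and an activated Ras, and it is used as a model of angiosarcoma. The cells were injected under the flank skin of athymic nude mice of 8 to 12 weeks of age, which lack mature T cells. The labels name the strain of every sample as C57BL/6. Daily gavage began 3 to 7 days later and, by the labels, went on until a tumor ulcerated or passed 1 cm. The study ran 2 treatment experiments with different endpoints, and which of them gave these tumors is not stated otherwise. The 4 groups of 3 tumors were vehicle (control), trametinib at 1 mg/kg, which inhibits the kinases MEK1 and MEK2, cediranib at 3 mg/kg, which inhibits VEGF receptors, and both drugs at these doses (combination). Whole tumor RNA was sequenced after exome capture, and host and tumor transcripts are both of mouse. Fewer cells of a type and less RNA per cell therefore cannot be told apart. All groups carried the same cell line in the same kind of host, and days on treatment could differ between tumors.

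The 12 libraries held between 9478865 and 11666094 counts, and no 2 held identical values. Levels are given as CPM, counts scaled to a common library total, and 3 counts, taken as the floor of detection, corresponded to 0.251 to 0.349 CPM depending on the library. A gene was called at a false discovery rate (FDR) under 0.05 over all genes tested together with a log2 difference of 1.5 or more in either direction. Endothelial markers were present in every group, with summed levels of 196 to 447 CPM in control, 50.7 to 112 CPM in trametinib, 116 to 332.9 CPM in cediranib and 33.5 to 78.6 CPM in combination tumors. Of the 10 endothelial markers tested, 4 were called lower in trametinib and 6 in combination tumors against control. Of all genes tested, 1.43% and 1.71% were called lower in these comparisons. Several libraries stood apart in markers of neighbouring tissue. Skeletal muscle markers summed to 17675 CPM in control 2 and 25000 CPM in trametinib 2, and to 6.87 CPM in control 3. Epidermal markers summed to between 3080 and 4656 CPM in the combination tumors, to between 37.1 and 49.9 CPM with trametinib, and to 2948, 52.0 and 1849 CPM in cediranib 1, 2 and 3. The corresponding values in control 1, 2 and 3 were 654, 55.8 and 26.3 CPM. Fibroblast markers were highest in control 3, at 21190 CPM, and in trametinib 2, at 37144 CPM. Dusp6, a phosphatase induced by ERK signaling, was measured as a check of the drug at 39.0 to 47.7 CPM in control, 1.98 to 4.54 CPM in trametinib, 41.4 to 43.6 CPM in cediranib and 10.2 to 13.9 CPM in combination tumors. The ERK target Etv4 was likewise lowest with trametinib and next lowest with the combination. Its levels in control, trametinib, cediranib and combination tumors were 78.7 to 89.3, 8.26 to 14.7, 71.8 to 116 and 25.7 to 36.5 CPM.

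The promoter windows of the receptors bear on how the pathway is wired, because Rarb is the textbook example of a gene that retinoic acid switches on through repeated half-sites in its own promoter. RefSeq windows on GRCm38.p6, running from 250 bases before to 50 bases after a transcript start, matched 7 of the 9 genes. Crabp2 and Aldh1a3 had none. The 6-base receptor half-site was searched on both strands in 4 forms. The first was AGGTCA, which is the one most often drawn for this receptor family. The next was AGTTCA, which is a frequent variant of it. The others were GGGTCA, also counted among the variants, and finally GGTTCA. The 250 bases upstream are shown for Rarb, for Rarg, the receptor gene that passed the FDR in trametinib against control, and for Dhrs3, which was called in combination against trametinib. Capitals mark half-sites in either orientation, and the coordinates are chr14:16575477-16575726 (minus strand) for Rarb, chr15:102257523-102257772 (minus strand) for Rarg and chr4:144892577-144892826 (plus strand) for Dhrs3.
Rarb: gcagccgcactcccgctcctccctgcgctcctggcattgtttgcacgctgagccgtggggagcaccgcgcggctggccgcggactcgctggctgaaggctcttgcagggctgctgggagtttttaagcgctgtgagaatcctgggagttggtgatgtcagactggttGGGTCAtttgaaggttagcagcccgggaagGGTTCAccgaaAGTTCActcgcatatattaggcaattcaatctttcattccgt
Rarg: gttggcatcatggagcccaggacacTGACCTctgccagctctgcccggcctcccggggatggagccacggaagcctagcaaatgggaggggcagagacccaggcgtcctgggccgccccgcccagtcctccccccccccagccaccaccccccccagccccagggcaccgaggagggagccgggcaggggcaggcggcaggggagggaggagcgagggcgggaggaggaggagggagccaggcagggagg
Dhrs3: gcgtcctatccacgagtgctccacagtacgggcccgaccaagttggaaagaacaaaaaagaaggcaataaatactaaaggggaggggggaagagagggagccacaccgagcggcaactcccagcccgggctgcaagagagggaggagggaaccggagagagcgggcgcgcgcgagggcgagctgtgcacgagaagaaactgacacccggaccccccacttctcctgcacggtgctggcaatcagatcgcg
In Rarb, GGTTCA at position -53 and AGTTCA at position -42, counted from the transcript start, formed a direct repeat with 5 bases between them, and a GGGTCA lay further upstream at position -83. Such a repeat was present in 0.0974% of the 32851 windows searched, and among the 13 windows of these genes only in that of Rarb. Rarg held a single AGGTCA, on the opposite strand at position -225. The 3 windows of Dhrs3 held none of the 4 forms. Any of the 4 forms was present in 43.7% of all windows, so a lone half-site is a common match. Among the 13 windows of these genes 4 held one, those being windows of Rara, Rarb and Rarg. Direct repeats with 1 or 2 bases between, present in 0.222% and 0.268% of windows, were found in none of the 13. These are matches of letters only and were not tested for binding.

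Crabp2, at chr3:87948666-87953376 on the plus strand of GRCm38 (ENSMUSG00000004885), was the gene selected for its change. Its level was 0.852, 1.72 and 2.12 CPM in the control tumors and 48.4, 53.1 and 68.1 CPM in the trametinib tumors. The lowest trametinib tumor was far above the highest control tumor. The means were 1.57 ± 0.65 and 56.5 ± 10.3 CPM (SD, n = 3), and the fitted difference was 5.18 ± 0.34 (SE) on the log2 scale, or 36.3-fold, which is given as a description with no test because this contrast chose the set.

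Cediranib alone left Crabp2 at 2.40, 1.89 and 3.16 CPM, a range that overlapped control, with a log2 difference of 0.68 ± 0.35. In the combination tumors, Crabp2 stood at 12.8, 10.3 and 18.2 CPM, above every tumor without trametinib and below every tumor given trametinib alone. The fitted difference of combination against cediranib was 2.47 ± 0.31 on the log2 scale, or 5.52-fold. It lay between 2.14 and 2.69 in the 20 alternative runs, which include the run with no minimum fold, where the main fit is repeated. Against control and against trametinib alone the combination means differed by 3.14 ± 0.33 and -2.04 ± 0.28. These values too are descriptions with no test, because Crabp2 was selected with its levels in all 4 groups known.

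Markers of other cells varied over the same tumors. The mean log2 CPM of the fibroblast markers was 6.48 to 6.57 in the trametinib tumors, above that of every other tumor, and the next was control 3 at 6.27. Endothelial markers summed to 50.7 to 112 CPM in the trametinib tumors and to 196 to 447 CPM in control, without overlap. Epidermal markers summed to 37.1 to 49.9 CPM in the trametinib tumors, between control 3 and control 2, and 12 to 16 of the 24 listed epidermal genes had 0 counts in each of those libraries. With the fibroblast score as a covariate, the Crabp2 difference was 4.71 for trametinib against control and 2.14 for combination against cediranib. With the epidermal score it was 5.15 and 2.51. The part of endothelial content in these values was not tested.

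Crabp1, the other cellular retinoic acid-binding protein, lies at chr9:54764748-54773110 (ENSMUSG00000032291). It stood at 3.15, 0 and 2.32 CPM in control and at 4.81, 1.05 and 0.335 CPM in trametinib tumors. With cediranib it was at 10.2, 1.70 and 9.09 CPM, and with the combination at 4.54, 2.00 and 3.81 CPM. The groups overlapped in every comparison, and the spread within a group was as wide as the difference between groups. The trametinib difference was 0.17 ± 1.03 on the log2 scale (FDR 0.951, edgeR quasi-likelihood test, n = 3 per group), and the cediranib difference was 1.91 ± 0.99 (FDR 0.999). Cediranib 1 and 3, the 2 tumors with the most Crabp1, also had the higher epidermal marker sums of that group, and cediranib 2 had the lower value of both. With the epidermal score as a covariate, the cediranib difference was 0.64 (FDR 1.00) and the combination difference against control turned from 0.89 to -1.05.

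Per kilobase of transcript, Crabp2 made up 85.9% to 99.2% of the summed Crabp1 and Crabp2 level in trametinib tumors and 63.1% to 75.7% in combination tumors. With cediranib alone it made up 12.5% to 40.3%. In control the share was 14.1%, 100% and 35.6%, the 100% coming from control 2, where Crabp1 had no count. Such shares between genes rest on the gene lengths of the count table, and how well each gene was captured was not measured.

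**Figure D1:**
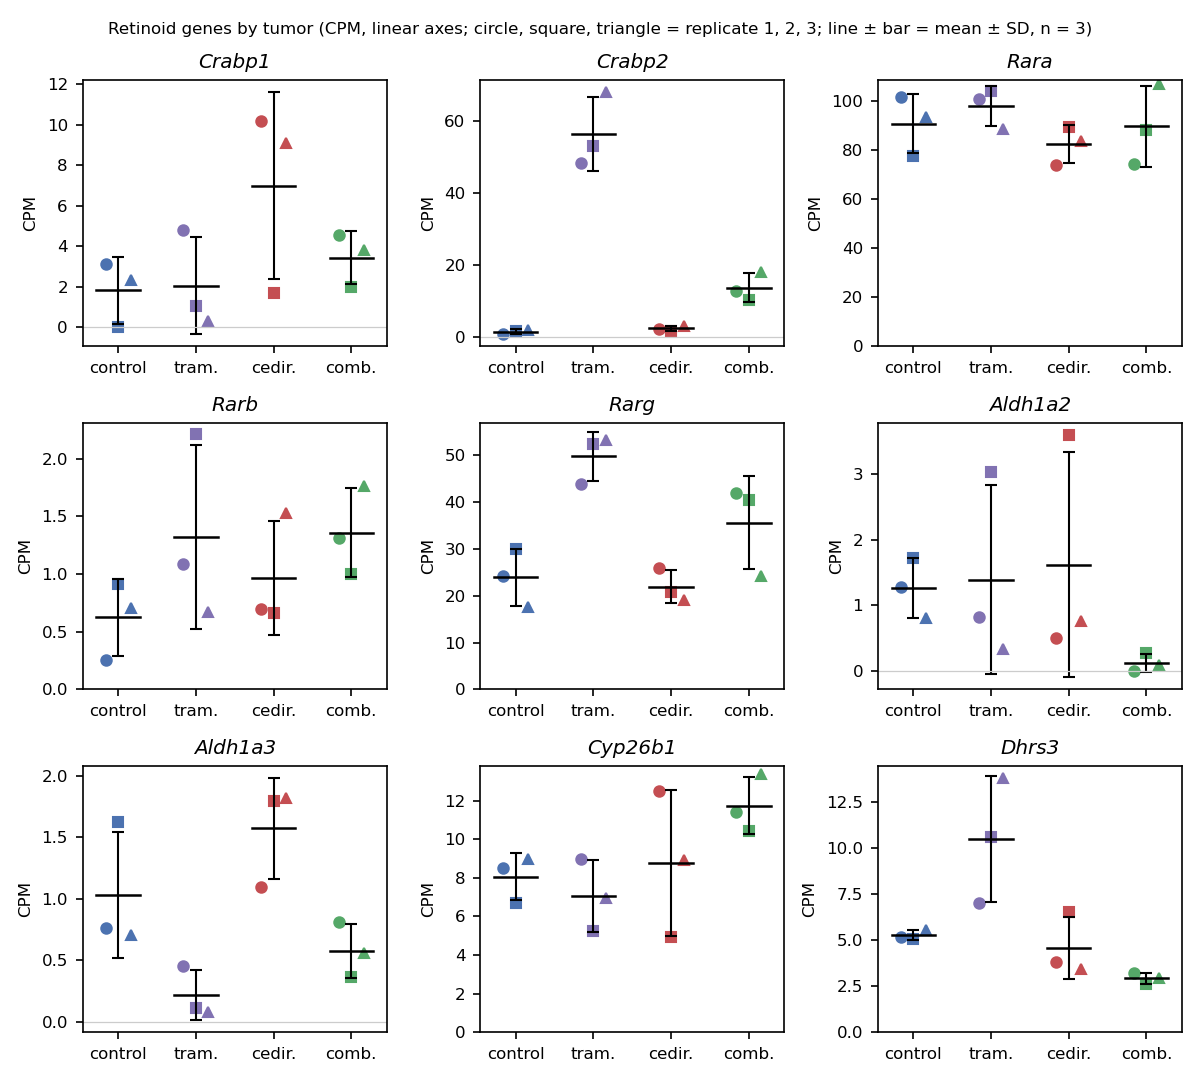
Level of each of the 9 retinoid genes in CPM (vertical axes, linear, each with its own range) in the 12 tumors by group (horizontal axes), with points for single tumors and lines and bars for the mean and SD of 3. Crabp2 separates trametinib and combination tumors from the rest, Rarg lies at 43.8 CPM or more in every trametinib tumor, and Dhrs3 lies at 3.23 CPM or less in every combination tumor.

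Among the receptors, Rarg passed the FDR but not the minimum fold with trametinib. Rarg (chr15:102234938-102257517, minus strand, ENSMUSG00000001288), the receptor form prominent in skin, stood at 24.2, 29.9 and 17.7 CPM in control and at 43.8, 52.4 and 53.2 CPM in trametinib tumors. The groups did not overlap. The log2 fold change of 1.06 ± 0.24 passed the FDR (0.0204) but not the minimum fold of 1.5, and so it was not called. Endothelial markers were lower and the fibroblast score higher in the same trametinib tumors, and Rarg was at 1.37 (FDR 0.0373) with the fibroblast score as a covariate. By FDR alone, 6.12% of genes passed in this comparison. Without control 1, control 3, trametinib 2 or trametinib 3, the FDR of Rarg was 0.0591, 0.0827, 0.0627 or 0.0702. Cediranib tumors were within the control range, at 25.9, 20.8 and 19.0 CPM. Combination tumors held 42.0, 40.5 and 24.1 CPM, and combination 3 alone fell within the range of the cediranib group. Neither combination contrast against tumors without trametinib passed, with 0.57 ± 0.23 against control (FDR 0.141) and 0.70 ± 0.24 against cediranib (FDR 0.0959), and against trametinib alone the value was -0.49 ± 0.23 (FDR 0.299), with the groups apart. Over the alternative runs the FDR went from 0.0491 to 0.71 against control and from 0.00954 to 0.238 against cediranib.

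Rara (chr11:98927818-98974162, plus strand, ENSMUSG00000037992), the broadly expressed receptor, was similar in level across the tumors. It stood at 102, 77.5 and 93.2 CPM in control, 101, 104 and 88.5 CPM in trametinib, 73.9, 89.3 and 83.7 CPM in cediranib and 74.1, 88.1 and 107 CPM in combination tumors. All 4 groups overlapped. The largest of its 5 differences between groups was -0.14 on the log2 scale, in cediranib against control, and none passed.

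Rarb (chr14:16430839-16819156, minus strand, ENSMUSG00000017491), whose promoter carries the repeat shown above, was near the floor of detection. Its levels were 0.255, 0.912 and 0.707 CPM in control, 1.09, 2.21 and 0.670 CPM in trametinib, 0.699, 0.662 and 1.53 CPM in cediranib and 1.31, 0.999 and 1.76 CPM in combination tumors. The 3 combination tumors lay above the 3 control tumors, but the log2 fold change of 1.13 ± 0.60 did not pass (FDR 0.249), and neither did that of trametinib against control, 1.06 ± 0.60 (FDR 0.351). Rarb had 131 counts over the 12 libraries, which limits how small a change could be detected. Top2b lies across it on the opposite strand, and the sources used here do not say whether counting used strand.

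As levels per kilobase of transcript, the summed receptor level was 25.0 to 29.0 in control, 32.9 to 36.5 in trametinib, 23.1 to 25.5 in cediranib and 27.1 to 30.5 CPM per kb in combination tumors. Rarg contributed 16.2% to 28.1% of it in control and 30.6% to 37.9% with trametinib. Rara remained the largest contributor in every tumor, at 61.7% or more, and Rarb contributed at most 1.21%. These shares too rest on the gene lengths, with capture of each gene not measured.

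**Figure D2:**
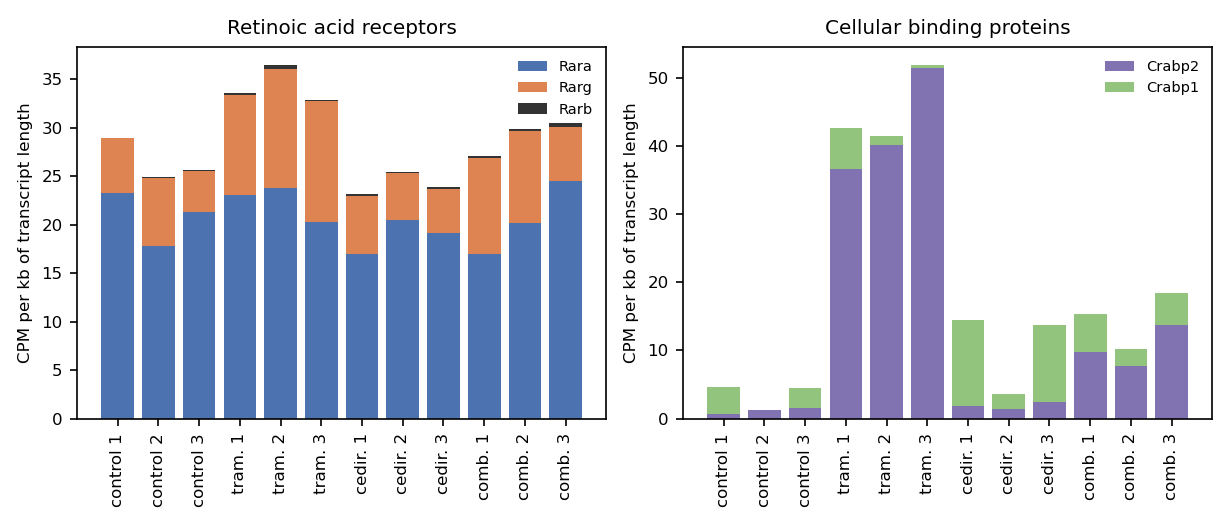
Stacked levels in CPM per kilobase of transcript (vertical axes) for the receptors (left) and the cellular binding proteins (right) in each of the 12 tumors (horizontal axes). Rara fills most of every receptor bar, the Rarg part is larger in the trametinib bars, and Crabp2 fills 85.9% or more of each trametinib bar on the right.

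The synthesis genes were low. Aldh1a3 (chr7:66390890-66427517, minus strand, ENSMUSG00000015134), one of the enzymes that make retinoic acid, stood at 0.766, 1.62 and 0.707 CPM in control and at 0.454, 0.116 and 0.0837 CPM in trametinib tumors, where it had 7 counts in all. Every trametinib tumor was below every control tumor. The log2 fold change was -2.16 ± 0.65 (FDR 0.0758), which missed the threshold. Without trametinib 1, which held 5 of the 7 counts, it was -3.24 and passed (FDR 0.0441). Leaving out any other library gave no pass, and without control 2 it was -1.69 (FDR 0.237). With the fibroblast score as a covariate it was -2.18 (FDR 0.208). Cediranib tumors held 1.10, 1.797 and 1.82 CPM and combination tumors 0.808, 0.363 and 0.557 CPM, again without overlap, at -1.44 ± 0.57 (FDR 0.151). The fitted difference of Aldh1a3 was thus negative in both comparisons that added trametinib, where that of Crabp2 was positive.

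Aldh1a2 (chr9:71215789-71296243, plus strand, ENSMUSG00000013584), the main retinoic acid-making enzyme of the embryo, had 4 counts over the 3 combination tumors together, at 0, 0.272 and 0.0928 CPM, each at or below the floor. The other groups held 1.28, 1.72 and 0.808 CPM (control), 0.817, 3.03 and 0.335 CPM (trametinib) and 0.500, 3.59 and 0.766 CPM (cediranib). Combination tumors were thus below every other tumor. The fitted differences of combination were -3.22 ± 1.14 against control (FDR 0.0927), -3.31 ± 1.14 against trametinib (FDR 0.16) and -3.58 ± 1.12 against cediranib (FDR 0.0749). None passed, and their size is uncertain because so few reads were seen. DESeq2 and the fit with the replicate number as a block called Aldh1a2 against control and against cediranib. Trametinib alone left it at 0.09 ± 0.87 against control (FDR 0.971). With the epidermal score as a covariate the combination differences were -1.80 against control (FDR 0.70), -1.31 against trametinib (FDR 0.975) and -2.47 against cediranib (FDR 0.318), and with the fibroblast score they were -3.25, -3.03 and -3.67. Without trametinib 2 the value against trametinib was -2.10. Over all runs that left out 1 library, the values went from -4.41 to -2.71 against control. They went from -4.49 to -2.10 against trametinib and from -4.75 to -2.24 against cediranib. Skeletal muscle markers varied over the same libraries, and their part in Aldh1a2 was not tested. Summed per kilobase, Aldh1a2 and Aldh1a3 reached 0.162 to 0.199 CPM per kb in combination tumors and 0.510 to 1.11 CPM per kb in control.

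Dhrs3 (chr4:144892827-144927642, plus strand, ENSMUSG00000066026), which lowers the supply of retinaldehyde and is itself known as a retinoic acid-induced gene, was higher in the trametinib tumors than in control and lowest in the combination tumors. It stood at 5.20, 5.07 and 5.56 CPM in control and at 6.99, 10.6 and 13.8 CPM in trametinib tumors. In cediranib tumors it stood at 3.80, 6.53 and 3.44 CPM and in combination tumors at 3.23, 2.63 and 2.97 CPM. Every trametinib tumor was above every control tumor, and every combination tumor was below every tumor of the other groups. Against trametinib alone, Dhrs3 in combination tumors fell by 1.83 on the log2 scale (SE 0.30, FDR 0.0249, edgeR quasi-likelihood test). It was the only gene called in that comparison among the 8 other than Crabp2. Trametinib against control gave 0.99 ± 0.29 (FDR 0.0656), combination against control -0.84 ± 0.30 (FDR 0.0988) and combination against cediranib -0.64 ± 0.30 (FDR 0.23), none of them called. The difference between the effects of trametinib with and without cediranib was -1.63 ± 0.42, which did not pass (FDR 0.504).

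The Dhrs3 call rested on all the combination tumors and 2 of the trametinib tumors. Without any 1 of these libraries the number of all genes called in this comparison fell from 87 to between 0 and 21. Without trametinib 2 or 3 the FDR was 0.0715 or 0.0748, and without combination 1, 2 or 3 it was 0.0706, 0.0862 or 0.0849, with log2 fold changes between -1.88 and -1.56. Epidermal marker sums differed between these groups in the opposite direction, from 37.1 to 49.9 CPM with trametinib to 3080 to 4656 CPM with the combination. With an epidermal score as a covariate, the Dhrs3 difference was -0.99 (FDR 0.884), and with a fibroblast score it was -1.53 (FDR 0.287). Between these groups the epidermal score and the treatment separate the same tumors, so their parts in the fall cannot be told apart.

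Cyp26b1 (chr6:84571414-84593908, minus strand, ENSMUSG00000063415), which inactivates retinoic acid, showed no difference with trametinib that was detectable at this depth. It stood at 8.52, 6.69 and 8.99 CPM in control and 8.99, 5.24 and 6.95 CPM in trametinib tumors, a log2 difference of -0.19 ± 0.31 (FDR 0.796). Cediranib tumors were spread from 4.92 to 12.5 CPM. Combination tumors stood at 11.4, 10.4 and 13.4 CPM, above every control and trametinib tumor, with 0.54 ± 0.31 against control (FDR 0.28) and 0.73 ± 0.31 against trametinib (FDR 0.243). With the epidermal score as a covariate both values turned negative, to -0.20 and -0.28.

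Across the 8 genes other than Crabp2, trametinib against control called 0, where 2.4% of all genes were called (0.977% higher and 1.43% lower). The count was 0 in DESeq2 as well, and 3 of the 8 genes, Rarg, Dhrs3 and Aldh1a3, had an unadjusted p under 0.05, as did 2665 of all 12897 genes. The same 3 genes did not overlap between the groups, 2 of them higher and Aldh1a3 lower, where 25.8% of all genes did not overlap. The median log2 fold change of the 8 genes was 0.14, and that of all genes tested was 0.006. In cediranib against control 0 of the 8 and 0% of all genes were called by edgeR, 557 genes had an unadjusted p under 0.05 but none of the 8 did, and DESeq2 called 10 genes, 0 of them among the 8. None of the 8 was apart between those groups, where 7.76% of all genes were.

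In combination against control edgeR called 0 of the 8, where 3.61% of all genes were called (1.91% higher and 1.71% lower). Of the 8, 3 had an unadjusted p under 0.05, as did 3513 of all 12897 genes, and DESeq2 called 1, Aldh1a2. Between these groups 4 of the 8 were apart, where 31.3% of all genes were. Adding cediranib to trametinib called 1 of the 8, Dhrs3, against 0.675% of all genes (0.535% higher and 0.14% lower), and 4 of the 8 were apart where 24.2% of all genes were. Adding trametinib to cediranib called 0 of the 8 with edgeR, where 2.45% of all genes were called (1.29% higher and 1.16% lower). An unadjusted p under 0.05 was found for 3 of the 8 and for 2980 of all 12897 genes, and DESeq2 called Aldh1a2. In that comparison 3 of the 8 were apart, where 28.4% of all genes were. The interaction of the drugs called 0% of all genes with edgeR (909 had an unadjusted p under 0.05, 2 of them among the 8) and 28 genes with DESeq2, 0 among the 8. Crabp2 was higher in both comparisons that added trametinib. Of the other 8, Rarb and Rarg had positive values in both under every alternative run, Aldh1a3 had negative values in both, and Dhrs3, Cyp26b1, Crabp1 and Aldh1a2 had values of different sign in the 2 comparisons. Rara was positive in both (0.11 and 0.12), and the latter turned negative when combination 3 was left out.

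**Figure D3:**
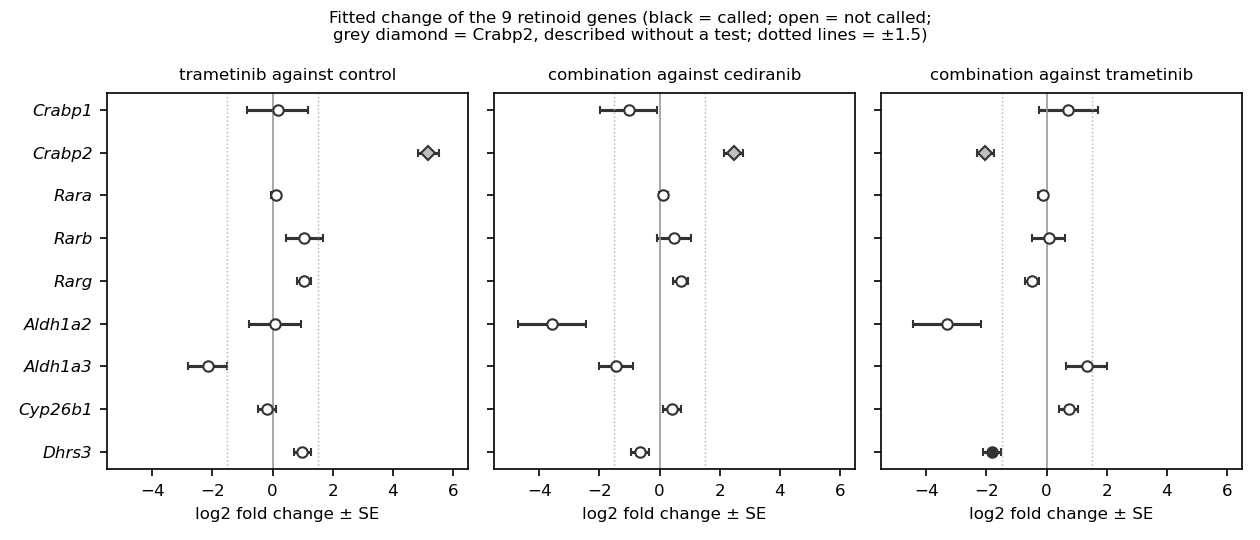
Fitted log2 fold change with its SE (horizontal axes) of the 9 genes (vertical axis) in 3 comparisons of 3 tumors against 3, where black symbols were called, open ones were not and grey diamonds mark Crabp2, described without a test. Dhrs3 in the right panel (-1.83) is the tested value past both thresholds.

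Per kilobase of transcript, the order of levels in control was Rara (20.8 CPM per kb), Rarg (5.61), Crabp1 (2.28), Dhrs3 (1.802), Cyp26b1 (1.51), Crabp2 (1.18), Aldh1a2 (0.561), Aldh1a3 (0.223) and Rarb (0.119). The ranges of Rara and Rarg over the 3 tumors did not overlap those of the genes next to them in this order, whereas those of Crabp1 and Dhrs3, Cyp26b1 and Crabp2, Crabp2 and Aldh1a2, and Aldh1a3 and Rarb overlapped. In trametinib tumors Crabp2 led at 42.8 CPM per kb, clear of Rara at 22.4 and Rarg at 11.68, and Aldh1a3 was last at 0.0472. In CPM, without the length, Rara led in these tumors at 97.7 and Crabp2 stood at 56.5. The order between genes thus depends on the length used, and how well each gene was captured was not measured. In combination tumors Rara led at 20.5, followed by Crabp2 at 10.4 and Rarg at 8.34, which overlapped. In cediranib tumors Crabp1, at 8.72, was second to Rara, at 18.9, and overlapped Rarg, at 5.14.

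Other genes of the pathway were taken from lists by role, and few of them were called. Of 10 genes of retinoid uptake and storage, 5 were tested, and 3 of these were called in combination against control, where 3.61% of all genes were, and none in the other comparisons with edgeR. Epidermal markers summed to 26.3 to 654 CPM in control and 3080 to 4656 CPM in these combination tumors, and their part in the 3 calls was not tested. Rbp2, an intracellular retinol-binding protein known from the intestine, rose from a mean of 0.840 to 3.06 CPM (log2 fold change 1.86 ± 0.50, FDR 0.0366). Lrp1, a large endocytic receptor with many ligands, among them lipoprotein remnants that carry retinyl esters, rose from 1588 to 4754 CPM (1.58 ± 0.23, FDR 0.00307). Rbp4, the retinol carrier of blood, fell from 2.98 to 0.414 CPM (-2.81 ± 0.81, FDR 0.047), although the groups overlapped. The median of the 5 genes was -0.08 in that comparison.

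Of 23 further genes of retinoid oxidation and reduction, 8 were tested, and edgeR called none in any comparison. With trametinib 3 of the 8 had an unadjusted p under 0.05, as did 2665 of all 12897 genes. The median log2 fold change was 0.59, where that of all genes was 0.006. Some passed the FDR but not the minimum fold, and they were named after their values were seen. Dhrs9 was lower with trametinib (-1.38, FDR 0.0332). In combination tumors Rdh10 was higher against control (0.66, FDR 0.0394), trametinib (0.88, FDR 0.0466) and cediranib (0.89, FDR 0.0142). Dhrs4 was higher against cediranib (0.83, FDR 0.044). Among 14 further receptors, carriers and cofactors 11 were tested, including the partners Rxra and Rxrb, and edgeR called none in any comparison. For trametinib against control 3 had an unadjusted p under 0.05, as did 2665 of all 12897 genes. Ppard (-0.84, FDR 0.021) and Ncoa1 (0.73, FDR 0.0271), named after their values were seen, passed the FDR there but not the minimum fold. By FDR alone 6.12% of all genes passed. Rxra had means of 15.1 CPM in control and 20.01 CPM in trametinib tumors (0.41 ± 0.22, FDR 0.335), and Rxrb had 24.9 and 26.4 CPM. Aldh1a1, Cyp26a1, Rxrg and Fabp5, with 27, 17, 25 and 64 counts over the 12 libraries, were too sparse to be tested.

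Genes known to be induced by retinoic acid were listed as well, and 14 of 21 identifiers were tested. None was called by edgeR in any comparison. In trametinib against control 6 had an unadjusted p under 0.05, as did 2665 of all 12897 genes, and the median log2 fold change was 0.04. The 2 members with the lowest FDR, named after their values were seen, had opposite signs. Meis2, a homeobox gene, stood at 168 CPM in control and 328 CPM in trametinib tumors (0.96, FDR 0.00428), and Tnfaip2 at 16.9 and 6.47 CPM (-1.39, FDR 0.000342), both past the FDR and under the minimum fold. In combination against control the median was 0.33, with 5 at an unadjusted p under 0.05, as were 3513 of all 12897 genes.

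**Figure D4:**
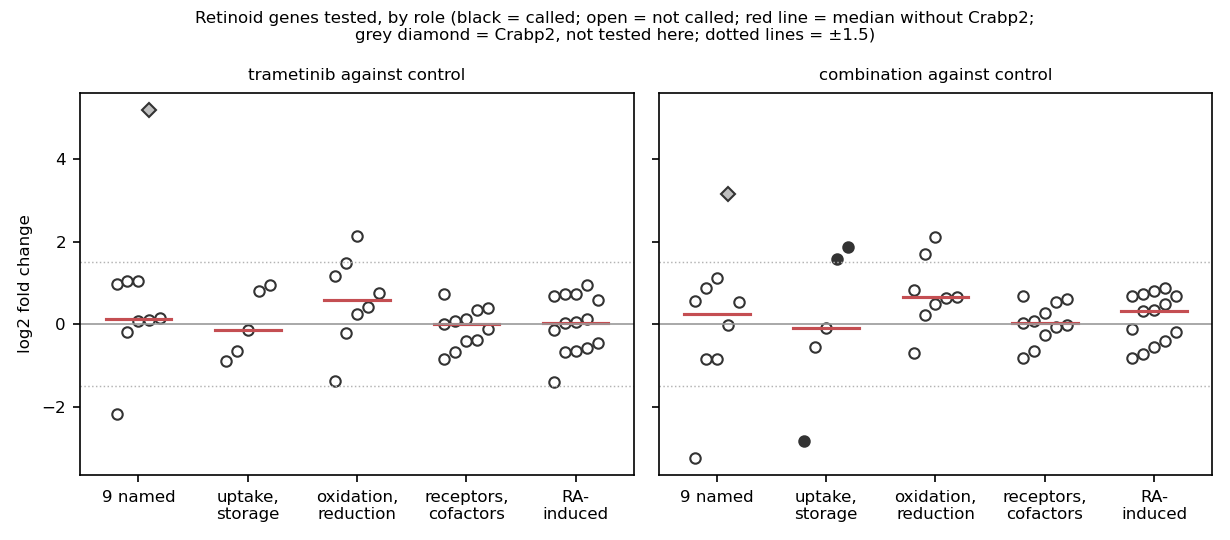
Log2 fold change (vertical axis) of each tested retinoid gene by role (horizontal axis) in trametinib against control (left) and combination against control (right), with black symbols for called genes and a red line for each median without Crabp2. The grey diamond of Crabp2 (5.18 and 3.14) stands above every other point in both panels, and the called genes are the 3 of uptake and storage on the right.

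Among the genes whose pattern over the 12 libraries was most like that of Crabp2 were Hoxa3, Timp2, Gm527 and Ghr, by Pearson's r of log2 CPM (0.958, 0.958, 0.949 and 0.948). These correlations describe 12 points that fall in 4 groups, with shared library and treatment. Hoxa3, a homeobox gene, had means of 3.998, 14.6, 4.17 and 9.35 CPM in control, trametinib, cediranib and combination tumors, and Timp2, a metalloproteinase inhibitor, had 386, 822, 373 and 595 CPM. In both genes the combination mean lay between that of trametinib and those of the groups without it, as for Crabp2, a likeness by which they were picked. Ghr, the growth hormone receptor, had 18.8, 50.9, 21.0 and 39.8 CPM. Among the retinoid genes, Rarg was closest to Crabp2 (r = 0.81, with 266 genes ranked above it) and Aldh1a3 was the most opposed (r = -0.81). Rarb (0.57), Dhrs3 (0.42) and Rara (0.33) lay between, and Cyp26b1 (-0.03), Crabp1 (-0.11) and Aldh1a2 (-0.29) had weak values.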

How the data were processed

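RNA of 12 SVR tumors was captured with an RNA exome kit. The deposited file gives raw read counts per gene, which the authors made with STAR 2.7.1a against GRCm38 and featureCounts 1.6.0 after bcl2fastq 1.8.4, and a gene length column (other unit) that was used for levels per kilobase. No annotation release, strand option or rule for reads that map more than once is stated (not given in the sources used here). Each sample was assigned to its group from its title. Genes were filtered with filterByExpr (minimum count 10, minimum total count 15), which left 12897, normalised by TMM and fitted with edgeR 4.0.16 (glmQLFit and glmQLFTest, R 4.3.3) over all 12 libraries, with Benjamini-Hochberg adjustment over all genes tested. SE was taken as the log2 difference over the root of F. A prior count of 2 went into log2 CPM. The labels do not state that the tumors of a group came from separate mice, so p-values measure the spread between these samples, which may in part be technical. The scripts were tested on simulated data.

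The genes, lists and tests were chosen with earlier results of these data known. Named genes were the 9 retinoid genes, listed genes called in any of the 6 contrasts (up to 6 per list), the 5 genes most correlated with Crabp2, and Dusp6 and Etv4. A result that these rules name is not reported here. Genes of the marker lists were used as sums, as mean log2 CPM scores, and as counts of genes called or without a count. Alternatives were relative log expression normalization, no count filter, DESeq2 1.42.0, only the groups compared, the replicate number as a block, no minimum fold, an epidermal or fibroblast score as a covariate, and leaving out each library.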

Additional observations from a re-analysis of the deposited data

Results flagged for a closer look

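The fitted difference of Dhrs3 with trametinib was 0.99 against control (FDR 0.0656) and -0.64 on top of cediranib (FDR 0.23), and neither passed. All 3 trametinib tumors (6.99, 10.6 and 13.8 CPM) were above all 3 control tumors (5.20, 5.07 and 5.56 CPM), and all 3 combination tumors (3.23, 2.63 and 2.97 CPM) were below all 3 cediranib tumors (3.80, 6.53 and 3.44 CPM). The difference of the effects, with cediranib minus without, was -1.63 on the log2 scale (SE 0.42) and did not pass the test of the interaction over all genes (FDR 0.504, edgeR). It was drawn to attention because every tumor of each pair of groups moved the same way. Epidermal marker sums were 3080 to 4656 CPM in the combination tumors and 37.1 to 49.9 CPM in the trametinib tumors, and their part in the difference was not tested beyond the covariate fit.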

How the results depend on the processing

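Of 1063 alternative values for the 54 log2 fold changes, 1005 kept their direction and their side of the threshold. The run with no minimum fold is among them, and its values are those of the main fit, so their direction was fixed. Runs without a library outside the groups compared are counted too, and these change little by design. The number of the 8 genes called rose without the count filter to 1 in cediranib against control (Crabp1), 1 in combination against control, 2 against trametinib, 1 against cediranib and 1 for the interaction, the added gene in the last 4 being Aldh1a2. All genes called then numbered 324, 1129, 773, 637 and 261. It was 1 with DESeq2 in combination against control and against cediranib (Aldh1a2, with 611 and 397 genes called in all). DESeq2 called 347 genes in combination against trametinib, where edgeR called 87. The replicate block gave 1 in combination against control and 1 against cediranib (Aldh1a2, with 446 and 277 genes called in all, against 466 and 316). Deviations of same-numbered samples from their group means correlated by -0.219 to 0.356. Differently numbered samples were not compared, so these values cannot decide whether the numbers pair the tumors. No minimum fold gave 1 with trametinib against control (Rarg). The epidermal and the fibroblast score each gave 0 in combination against trametinib, where Dhrs3 was lost, and there they called 2 and 0 genes in all. Leaving out 1 library gave 0 to 1 in trametinib against control (at least 233 genes in all) and 0 to 1 in combination against trametinib, where leaving out a trametinib or combination library lowered all calls from 87 to between 0 and 21. The cause of these shifts was not tested.

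Signs changed in 17 results. With the replicate block Aldh1a2 turned to -0.28 for trametinib and -0.0533 for cediranib, each against control. With the epidermal score, against control, trametinib gave Cyp26b1 0.0832 and Aldh1a2 -0.495, cediranib gave Dhrs3 0.0461 and Cyp26b1 -0.33, and the combination gave Cyp26b1 -0.20 and Crabp1 -1.05. Against trametinib the combination gave Cyp26b1 -0.28 and Crabp1 -2.19. With the fibroblast score Aldh1a2 turned to -0.22 for trametinib. Leaving out 1 library, the ranges against control were -1.47 to 0.82 (Crabp1) and -1.13 to 0.56 (Aldh1a2) for trametinib, -0.22 to 0.40 (Cyp26b1), -0.99 to 0.77 (Aldh1a2) and -0.30 to 0.0629 (Rarg) for cediranib, and -0.17 to 0.11 (Rara) for the combination. Against trametinib they were -0.26 to 0.0117 (Rara) and -0.25 to 0.62 (Rarb), against cediranib -0.0184 to 0.26 (Rara), and for the interaction -1.83 to 0.45 (Crabp1) and -0.11 to 0.16 (Rara). Rarb, Aldh1a2 and Aldh1a3, with 131, 134 and 106 counts in all, are limited by depth.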
